A study of Mus musculus with 9 samples.

Results

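The endoplasmic reticulum (ER) folding machinery of the pancreas was followed through 34 genes: the chaperones that hold new secretory proteins, the enzymes that form their disulfide bonds, the co-chaperones that serve both, the machinery that removes misfolded proteins and the sensors of the unfolded protein response. They were picked by gene name, with earlier results of these data known, and all 34 were found among the 46078 genes measured. RNA came from the whole pancreas of 8-week-old mice carrying an S6k2 RK allele (S6k2_RK) or a Snd1 knock-in allele (Snd1_KI), and from wild-type littermates (WT), with 3 animals per group. S6k2 is the ribosomal protein S6 kinase gene listed as Rps6kb2, and Snd1 encodes a nuclease and Tudor-domain protein. The series title links the Tudor domain of SND1 to methylated S6K2, and the 2 mutants ask what each protein's altered form does to the pancreas. The labels give neither the residues changed nor whether mice were heterozygous or homozygous, so neither mutant is described here beyond its name, and no conditional driver is named. Littermates were not matched to mutants in the labels.

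The acinar cell of the exocrine pancreas makes and secretes digestive enzymes in large amounts, and its ER is built for that load. HSPA5 (BiP) binds unfolded proteins and, in the textbook account, also keeps the sensors ATF6, IRE1 (gene Ern1) and PERK (gene Eif2ak3) quiet. When unfolded protein accumulates, IRE1 splices the Xbp1 message, ATF6 is cut to a transcription factor, and PERK slows translation. XBP1 and ATF6 in turn raise transcription of chaperones and of ER-associated degradation (ERAD), which pulls misfolded proteins out through a membrane channel for the proteasome. The table gives gene totals only, so splicing of Xbp1, cleavage of ATF6 and phosphorylation of PERK were not measured.

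A DNA element through which ATF6 and XBP1 act, the ER stress response element (ERSE), was searched on both strands in the 250 bases before each RefSeq gene start (GRCm38.p6), spelled CCAAT, any 9 bases, CCACG. RefSeq gave a promoter for 30 of the 34 genes, and Hyou1, Derl1, Atf6 and Manf had none in the table used. The element was present in 9 of the 30 (30.0%) and in 35 of 27025 promoters of all genes (0.13%). The matches are shown as a stretch of sequence that 9 of these genes share. The list was drawn up around the response that such elements serve, so a higher share than among all genes is no independent result. Capitals mark the element, lower case the flanking bases, and each sequence reads 5′ to 3′ on the strand of its gene. An element that lies on the opposite strand reads as CGTGG, a spacer of 9 bases and ATTGG.
Hspa5, chr2:34772020-34772048 (+), element 65 to 47 bases before the start: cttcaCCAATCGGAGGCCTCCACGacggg
Hsp90b1, chr10:86705626-86705668 (−), 212 to 194 bases before: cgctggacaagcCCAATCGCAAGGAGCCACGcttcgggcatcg
Hsp90b1, chr10:86705521-86705563 (−), 107 to 89 bases before, opposite strand: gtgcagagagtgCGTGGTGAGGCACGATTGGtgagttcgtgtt
Calr, chr8:84847063-84847105 (−), 162 to 144 bases before, opposite strand: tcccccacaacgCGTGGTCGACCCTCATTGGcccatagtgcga
Canx, chr11:50325788-50325830 (−), 145 to 127 bases before: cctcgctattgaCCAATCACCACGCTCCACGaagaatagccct
Pdia6, chr12:17266479-17266521 (+), 98 to 80 bases before: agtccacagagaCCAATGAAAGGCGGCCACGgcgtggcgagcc
Dnajc3, chr14:118937815-118937857 (+), 105 to 87 bases before: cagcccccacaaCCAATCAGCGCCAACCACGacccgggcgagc
Creld2, chr15:88819508-88819550 (+), 126 to 108 bases before, opposite strand: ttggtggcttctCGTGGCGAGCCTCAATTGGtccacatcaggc
Derl3, chr10:75893230-75893272 (+), 156 to 138 bases before, opposite strand: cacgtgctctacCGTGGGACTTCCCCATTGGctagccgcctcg
Syvn1, chr19:6046520-6046562 (+), 44 to 26 bases before: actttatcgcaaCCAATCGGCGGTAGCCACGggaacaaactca

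The Hspa5 window lies within an annotated exon and is shown with shorter flanks, while the other windows held no exonic base. The related element ERSE-II, spelled ATTGG, any base, CCACG, was present in 1 of the 30 promoters, that of Herpud1, and in 10 promoters of all genes (0.037%). It is shown as the only such match among these genes.
Herpud1, chr8:94386365-94386399 (+), 52 to 42 bases before the start: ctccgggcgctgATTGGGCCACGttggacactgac
The core of the unfolded protein response element, TGACGTG, was found before Hspa5, Txndc5 and Vcp, which is 10% of the 30 promoters against 1.85% of all. The choice of genes bears on these 2 shares in the same way. A match is a string of letters, and no binding was measured in this study.

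Each value is a deposited normalized count, a gene's reads divided by a size factor of its library. Recovered depth was 13461427 to 21034501 reads per library. Digestive enzyme genes took 81.6 ± 1.02% of counts in S6k2_RK, 79.9 ± 0.449% in Snd1_KI and 76.2 ± 0.670% in WT (SD, n = 3 each), and the 3 ranges did not overlap. An exact two-sided permutation test gave p = 0.1 for each pair of groups, the smallest p that 3 animals against 3 allow. Genes detected numbered 15556 ± 339 in S6k2_RK, 16271 ± 238 in Snd1_KI and 16885 ± 204 in WT (SD, n = 3 each). The mitochondrial share of counts was 0.851 ± 0.254% in S6k2_RK, 0.884 ± 0.0709% in Snd1_KI and 1.40 ± 0.251% in WT (SD, n = 3 each), with exact two-sided permutation p = 0.2 for S6k2_RK and 0.1 for Snd1_KI against WT. Snd1_KI lay wholly below WT, while S6k2_RK replicate 1, at 1.11%, reached the lowest WT library. The part of these library measures in the results below was not tested. Rps6kb2 lay between 24.7 and 56.0 normalized counts in S6k2_RK, between 36.4 and 52.7 in Snd1_KI and between 53.1 and 65.8 in WT. Snd1 lay between 2316 and 3147 in S6k2_RK, between 2722 and 3181 in Snd1_KI and between 1893 and 2180 in WT. Gene totals do not show a changed residue, so they check neither allele. The tissue label held: summed acinar markers (8 genes, digestive enzyme genes among them) ran from 3941457 to 5061741 normalized counts in S6k2_RK, from 3771996 to 4076512 in Snd1_KI and from 2638187 to 3049633 in WT. Lymphocyte markers also differed. All 8 T cell markers were called lower in each mutant than in WT, summing to 32.0 to 32.2 in S6k2_RK, 25.6 to 64.9 in Snd1_KI and 274 to 747 in WT.

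The limma test was run on log2(normalized count + 1) for the 11953 genes whose mean reached 10 normalized counts, with all 9 libraries in 1 fit. A call required p below 0.05 after Benjamini-Hochberg adjustment over those genes. All 34 genes passed the filter. They were chosen with earlier results known, so the shares called below are no independent result. In S6k2_RK, 14 of the 34 were called higher than in WT and 0 lower (41.2%), where 5.20% of all genes tested were called higher and 6.83% lower. The 14 were the chaperone gene Canx, the isomerase genes P4hb and Pdia6, the co-chaperone genes Dnajc3 and Sdf2l1, the ERAD genes Derl3, Sel1l, Syvn1, Edem1, Edem2, Os9 and Vcp, and Atf6 and Xbp1. The median log2 fold change was 0.37 over the 34 genes, against 0.0024 over all genes tested, and it became −0.15 when the libraries were instead scaled to equal totals. In Snd1_KI, 5 of the 34 were called higher than in WT and 0 lower (14.7%), where the background was 2.40% higher and 3.20% lower. The 5 were Pdia6, Derl3, Os9, Vcp and Atf6, and each was also among the 14. The median of the 34 genes was 0.25, against 0.0027 over all genes, and −0.040 with equal totals. At an unadjusted p below 0.05 limma gave 22 of the 34 genes in S6k2_RK and 16 in Snd1_KI, all higher, where 27.0% and 20.1% of all genes tested passed in either direction. Both edgeR and DESeq2 called none of the 34 lower either. The WT libraries are shared by both comparisons, so the 2 sets of values are not independent of each other. Among genes whose mean reached 50 normalized counts, as it did in 33 of the 34, 7.35% were called higher in S6k2_RK and 3.00% in Snd1_KI.

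**Figure D1:**
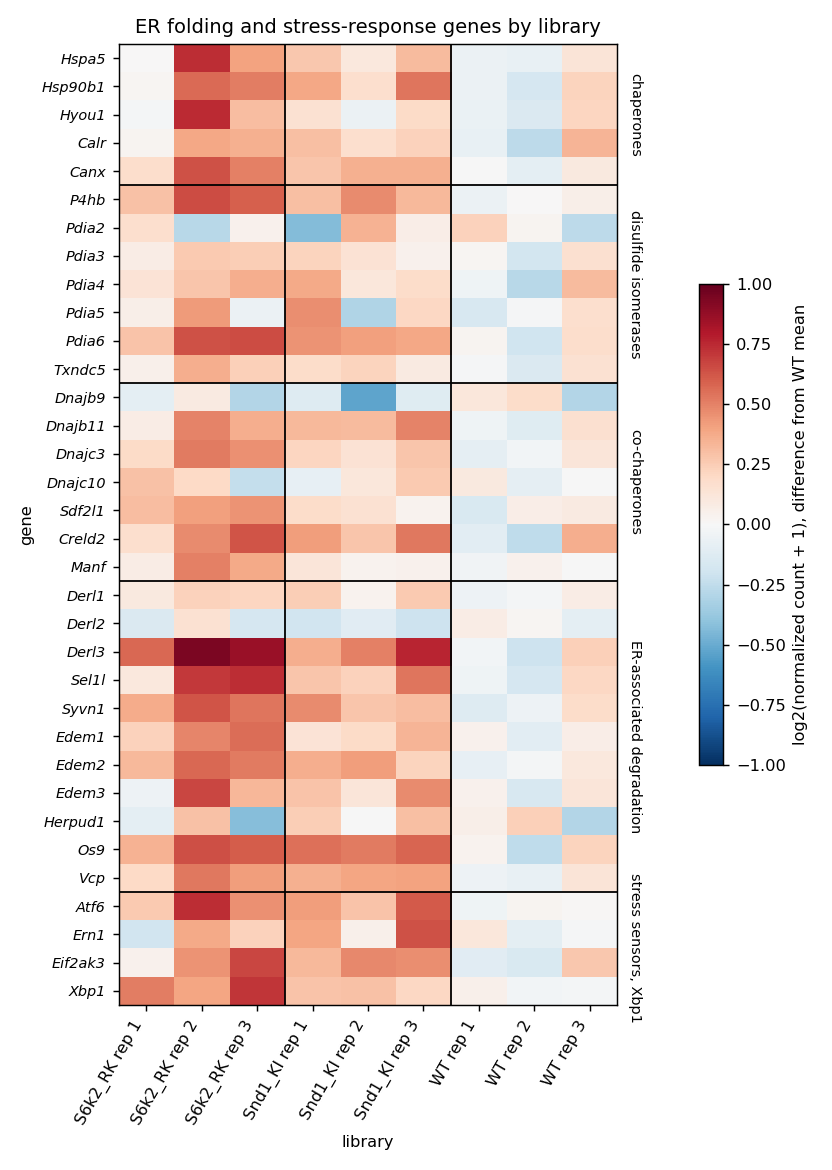
Heat map of the 34 genes (rows, grouped by role) in the 9 libraries (columns: S6k2_RK, Snd1_KI, WT), coloured by the difference of log2(normalized count + 1) from the WT mean. Most rows are red in both mutants with the authors' size factors (with equal totals the medians fall below 0), S6k2_RK replicate 1 is paler than its group, and Dnajb9, Derl2 and Herpud1 are among the rows with blue in the mutants.

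The sign of these changes depended on the scaling. With equal totals the median gene of all genes tested shifted to −0.51 in S6k2_RK against WT and to −0.28 in Snd1_KI against WT. Of the 34 genes, 0 were then called higher and 8 lower in S6k2_RK, where 0.310% of all genes were called higher and 49.8% lower. In Snd1_KI 0 were called higher and 2 lower (Derl2 and Dnajb9), with a background of 0.376% higher and 13.2% lower. Relative to the median gene, the median of the 34 genes was 0.36 with equal totals and 0.37 with the authors' size factors in S6k2_RK, and 0.24 under both scalings in Snd1_KI. A rescaling shifts every gene of a comparison by nearly the same amount, so this distance is fixed by construction and is no separate check. Scaling to equal totals outside the digestive enzymes gave a median of 0.22 in S6k2_RK, where 6 of the 34 genes were called higher and 0 lower against a background of 1.75% higher and 10.5% lower. In Snd1_KI the median was then 0.20, with 2 genes called higher and 0 lower against a background of 1.66% higher and 3.51% lower.

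**Figure D2:**
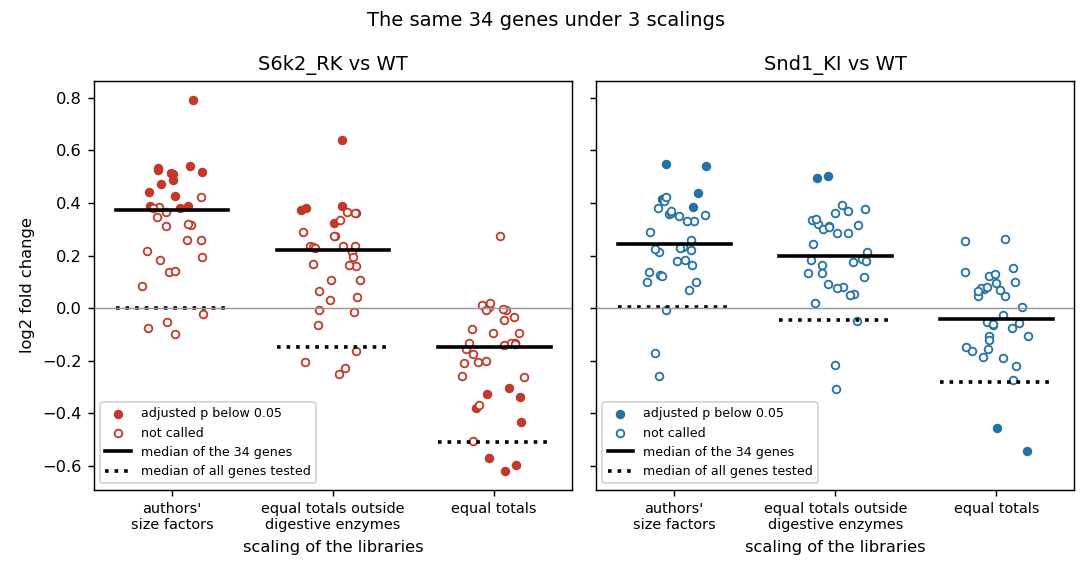
Log2 fold change (vertical axis) of the 34 genes under 3 scalings of the libraries, S6k2_RK against WT on the left and Snd1_KI against WT on the right, with filled points for adjusted p below 0.05. The solid bars (median of the 34 genes) stay above the dotted bars (median of all genes tested) under each scaling, while both shift below 0 with equal totals. The distance between the bars is fixed by construction, since a rescaling moves all genes by nearly the same amount.

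As a share of all counts the 34 genes together made up 0.449%, 0.525% and 0.452% in S6k2_RK, 0.526%, 0.493% and 0.535% in Snd1_KI, and 0.510%, 0.487% and 0.542% in WT. These ranges overlapped. As a share of the counts outside the digestive enzymes they made up 2.30%, 2.88% and 2.58% in S6k2_RK, 2.54%, 2.47% and 2.69% in Snd1_KI, and 2.09%, 2.04% and 2.35% in WT. On that base every Snd1_KI library lay above every WT library, while S6k2_RK replicate 1 lay below WT replicate 3. Per 1000 enzyme counts there were 5.58, 6.43 and 5.48 counts of these genes in S6k2_RK, 6.63, 6.15 and 6.67 in Snd1_KI, and 6.75, 6.39 and 7.05 in WT. Both mutants overlapped WT on this base. No test was run on these sums, since the genes were chosen with results known.

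**Figure D3:**
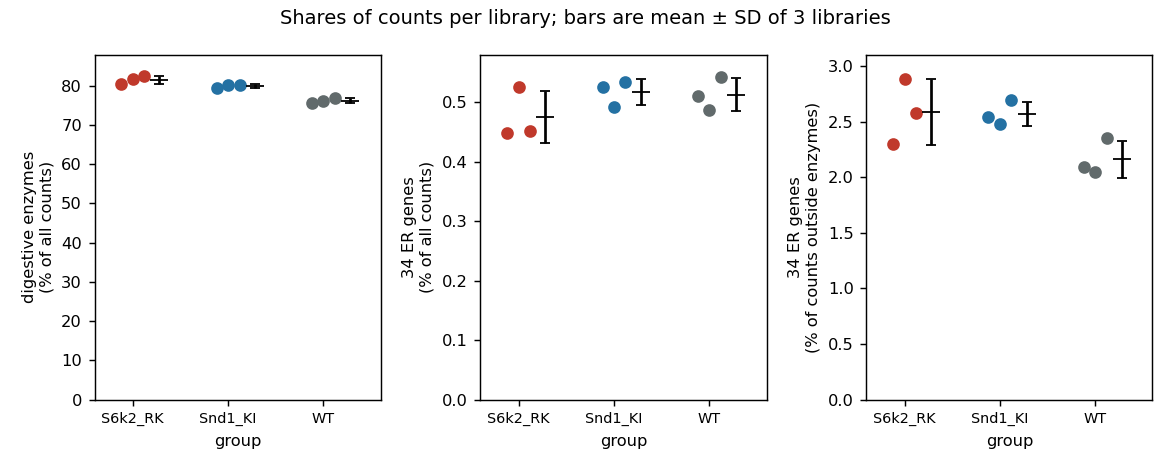
Share of counts per library (points) with the mean and SD of 3 libraries (bars) for the digestive enzymes, for the 34 ER genes as a percentage of all counts, and for the 34 ER genes as a percentage of counts outside the enzymes. The enzyme share is highest in S6k2_RK and lowest in WT with no overlap, and the ER share of all counts overlaps between the groups.

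Libraries within a group differed in a shared direction across these genes with the authors' size factors, which act on all genes of a library at once. The ranks below were not counted over all genes, so they are not shown to be particular to this set. S6k2_RK replicate 1 was the lowest of its group in 27 of 34 genes and S6k2_RK replicate 2 the highest in 24. Their median differences from the WT mean were 0.12 and 0.49 on the log2 scale, with 0.41 in S6k2_RK replicate 3. Among Snd1_KI libraries the medians were 0.28, 0.18 and 0.31, and among WT libraries −0.040, −0.094 and 0.12. With S6k2_RK replicate 1 left out, 22 of the 34 genes were called higher in S6k2_RK, and leaving out any other single library gave between 7 (without WT replicate 1) and 18 (without WT replicate 3). Among all 11953 genes tested, 856, 317 and 571 were called higher in these 3 fits. For Snd1_KI the count ran from 0 (without Snd1_KI replicate 3, and without WT replicate 2) to 10 (without S6k2_RK replicate 1). There 89, 79 and 383 of all genes tested were called higher in the same order, so the member counts moved with the calls among all genes.

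The general chaperones, which bind unfolded chains and glycoproteins, included Hspa5 with 2031 normalized counts per kilobase of exon in S6k2_RK, 1791 in Snd1_KI and 1528 in WT, the third highest level in WT. Of 5 genes, 1 was called higher in S6k2_RK and 0 in Snd1_KI (2 at an unadjusted p below 0.05), with medians of 0.37 and 0.23, and −0.15 and −0.054 with equal totals. Hspa5 (ENSMUSG00000026864, chr2:34771970-34777547) encodes BiP, the HSP70 of the ER lumen and a common readout of ER stress. Its normalized counts were 6468, 10786 and 8517 in S6k2_RK, 7753, 6935 and 8035 in Snd1_KI and 6204, 6121 and 7061 in WT. The range within S6k2_RK spanned the Snd1_KI range and overlapped the WT range at replicate 1. Hspa5 was not called in S6k2_RK (log2 fold change 0.38 ± 0.14 (SE), adjusted p = 0.0853) or in Snd1_KI (log2 fold change 0.23 ± 0.14 (SE), adjusted p = 0.387). Without S6k2_RK replicate 1 the S6k2_RK comparison gave an adjusted p of 0.00295, so whether Hspa5 is called depends on that library.

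Canx (ENSMUSG00000020368, chr11:50293961-50325673) encodes calnexin, the membrane lectin that holds newly made glycoproteins. Normalized counts of Canx were 1682, 2315 and 2108 in S6k2_RK, 1802, 1902 and 1907 in Snd1_KI and 1486, 1388 and 1593 in WT, and every library of each mutant lay above every WT library. Canx rose 1.36-fold in S6k2_RK (log2 fold change 0.44 ± 0.11 (SE), adjusted p = 0.0163). That call was lost when single libraries were left out (adjusted p = 0.0752 without S6k2_RK replicate 2, 0.0667 without S6k2_RK replicate 3, 0.0546 without WT replicate 1, 0.0674 without WT replicate 2). In Snd1_KI Canx was not called (log2 fold change 0.33 ± 0.11 (SE), adjusted p = 0.0974), although without S6k2_RK replicate 1 in the shared fit its adjusted p was 0.0311. The 3 other chaperones were Hsp90b1 (GRP94, the HSP90 of the ER), Calr (calreticulin, the soluble partner of calnexin) and Hyou1 (GRP170, a nucleotide exchange factor of BiP). Their log2 fold changes were 0.37, 0.26 and 0.34 in S6k2_RK and 0.36, 0.23 and 0.098 in Snd1_KI, with overlapping groups and no call.

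The protein disulfide isomerases form and reshuffle the disulfide bonds that many digestive enzymes carry. Of 7 genes, 2 were called higher in S6k2_RK and 1 in Snd1_KI, with medians of 0.22 and 0.17, and −0.30 and −0.12 with equal totals. P4hb (ENSMUSG00000025130, chr11:120560298-120573253) encodes the founding isomerase PDI and had the highest level per kilobase of exon of the 34 genes, with 6526 normalized counts per kilobase in S6k2_RK, 5876 in Snd1_KI and 4550 in WT. Its normalized counts were 15908, 20461 and 19639.8 in S6k2_RK, 16018, 18092 and 16322 in Snd1_KI and 12499, 13015 and 13536 in WT. The WT libraries lay close together, and every library of both mutants lay above them. P4hb rose 1.43-fold in S6k2_RK (log2 fold change 0.51 ± 0.11 (SE), adjusted p = 0.00691), a call kept when any single library was left out, and its log2 fold change was −0.0079 with equal totals. The Snd1_KI difference was not called (log2 fold change 0.37 ± 0.11 (SE), adjusted p = 0.0697), though it was without S6k2_RK replicate 1 (adjusted p = 0.0171).

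Pdia6 (ENSMUSG00000020571, chr12:17266545-17284770) encodes an isomerase that works with BiP and also binds the stress sensors. Normalized counts of Pdia6 were 2790.0, 3554 and 3596 in S6k2_RK, 3119.6, 3045 and 2989 in Snd1_KI and 2333, 1991 and 2579.6 in WT. Each mutant lay wholly above WT, and the Snd1_KI libraries fell inside the S6k2_RK range. Pdia6 rose 1.44-fold in S6k2_RK (log2 fold change 0.52 ± 0.12 (SE), adjusted p = 0.00627), which held in all 9 fits without a library, and 1.33-fold in Snd1_KI (log2 fold change 0.41 ± 0.12 (SE), adjusted p = 0.0415). The Snd1_KI call was lost in 5 of those 9 fits (adjusted p = 0.133 without Snd1_KI replicate 1, 0.123 without Snd1_KI replicate 2, 0.114 without Snd1_KI replicate 3, 0.0994 without WT replicate 1, 0.213 without WT replicate 2). It was also absent by edgeR (adjusted p = 0.0741). With equal totals Pdia6 stood at 0.0039 in S6k2_RK (limma adjusted p = 0.975) and 0.13 in Snd1_KI (adjusted p = 0.399), without a call. Pdia2 encodes the isomerase first described as specific to the human pancreas, yet it had the lowest level per kilobase of the set here, with normalized counts of 14.99, 10.7 and 13.6 in S6k2_RK, 9.52, 17.04 and 13.9 in Snd1_KI and 15.7, 13.5 and 10.8 in WT. Its log2 fold change was −0.021 ± 0.40 (SE) in S6k2_RK and −0.0061 ± 0.40 in Snd1_KI, an error too wide to place a change of the size seen in P4hb. Pdia3, the partner of calnexin and calreticulin, and Pdia4, Pdia5 and Txndc5 were not called, with log2 fold changes from 0.14 to 0.26 in S6k2_RK and from 0.13 to 0.23 in Snd1_KI.

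Co-chaperones and small ER proteins set the pace of the BiP cycle. Of 7 genes, 2 were called higher in S6k2_RK and 0 in Snd1_KI (2 at an unadjusted p below 0.05), with medians of 0.32 and 0.12, and −0.20 and −0.16 with equal totals. Dnajc3 (ENSMUSG00000022136, chr14:118937976-118981697) encodes p58IPK, a lumenal J-domain protein whose loss in mice damages pancreatic beta cells. Its normalized counts were 2964, 3711 and 3566 in S6k2_RK, 3003, 2869 and 3145 in Snd1_KI and 2438, 2540.2 and 2817 in WT, with both mutants wholly above WT. Dnajc3 rose 1.31-fold in S6k2_RK (log2 fold change 0.39 ± 0.10 (SE), adjusted p = 0.021) and was not called in Snd1_KI (log2 fold change 0.21 ± 0.10 (SE), adjusted p = 0.265). Single libraries ended the S6k2_RK call (adjusted p = 0.0817 without S6k2_RK replicate 2, 0.0837 without S6k2_RK replicate 3, 0.0989 without WT replicate 1, 0.0641 without WT replicate 2).

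Sdf2l1 (ENSMUSG00000022769, chr16:17130138-17132383) encodes a lumenal protein that joins J-domain partners of BiP. Normalized counts of Sdf2l1 were 933, 1004 and 1028 in S6k2_RK, 858, 838 and 771 in Snd1_KI and 677, 789 and 802 in WT. The S6k2_RK libraries lay above every library of the other 2 groups, and Snd1_KI overlapped WT. Sdf2l1 rose 1.31-fold in S6k2_RK (log2 fold change 0.39 ± 0.10 (SE), adjusted p = 0.0206), with the call lost in 3 fits (adjusted p = 0.0521 without S6k2_RK replicate 2, 0.0831 without S6k2_RK replicate 3, 0.114 without WT replicate 1), and was not called in Snd1_KI (log2 fold change 0.12 ± 0.10 (SE), adjusted p = 0.548). Dnajb9 (ERdj4), a co-chaperone that returns IRE1 to its BiP-bound state and a classic XBP1 target, was on the other side of 0 with log2 fold changes of −0.10 ± 0.15 (SE) in S6k2_RK and −0.26 ± 0.15 in Snd1_KI. Its normalized counts of 458, 519 and 399 in S6k2_RK, 448, 338 and 449 in Snd1_KI and 529, 555 and 398 in WT overlapped between all groups. Dnajb11, Dnajc10, Creld2 and Manf were not called, and their log2 fold changes ran from 0.086 (Dnajc10) to 0.42 (Creld2) in S6k2_RK and from 0.067 (Manf) to 0.41 (Creld2) in Snd1_KI.

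Of the 11 ERAD genes, 7 were called higher in S6k2_RK and 3 in Snd1_KI, where 5.20% and 2.40% of all genes tested were called higher. Medians were 0.43 and 0.33, and −0.095 and 0.047 with equal totals. ERAD genes outside the 34 gave fewer calls. Of 17 tested, 2 were called higher in S6k2_RK and 0 in Snd1_KI, with medians of 0.27 and 0.064. Derl3 (ENSMUSG00000009092, chr10:75893413-75895941) encodes derlin-3, a membrane protein of the retrotranslocation channel that is abundant in secretory tissue. Its normalized counts were 1004, 1296 and 1228 in S6k2_RK, 868, 955 and 1142 in Snd1_KI and 660.5, 585 and 795 in WT. Both mutants lay wholly above WT, and the highest Snd1_KI library fell inside the S6k2_RK range. Derl3 had the largest S6k2_RK change of the 34 genes with these size factors, 1.73-fold (log2 fold change 0.79 ± 0.13 (SE), adjusted p = 0.000847), called in all 9 fits without a library. It rose 1.45-fold in Snd1_KI (log2 fold change 0.54 ± 0.13 (SE), adjusted p = 0.0226), a call that ended in 4 fits (adjusted p = 0.0699 without Snd1_KI replicate 2, 0.141 without Snd1_KI replicate 3, 0.0755 without WT replicate 1, 0.133 without WT replicate 2). With equal totals Derl3 stayed positive in both mutants, at 0.27 in S6k2_RK and 0.26 in Snd1_KI, without a call. Its paralogues took other values: Derl1 stood at 0.18 in S6k2_RK and 0.18 in Snd1_KI, and Derl2 at −0.052 and −0.17, none of them called.

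The ubiquitin ligase that marks ERAD substrates is made of Syvn1 (HRD1) and its partner Sel1l. Sel1l (ENSMUSG00000020964, chr12:91806043-91849157) had normalized counts of 7163, 10862 and 11098 in S6k2_RK, 8058, 7824 and 9667 in Snd1_KI and 6463, 5934 and 7691 in WT, where S6k2_RK replicate 1 fell below WT replicate 3. Sel1l rose 1.43-fold in S6k2_RK (log2 fold change 0.52 ± 0.15 (SE), adjusted p = 0.0296), and the call was lost in 4 fits (adjusted p = 0.113 without S6k2_RK replicate 2, 0.138 without S6k2_RK replicate 3, 0.101 without WT replicate 1, 0.12 without WT replicate 2). Syvn1 (ENSMUSG00000024807, chr19:6046576-6053712) had normalized counts of 557, 666 and 624 in S6k2_RK, 598, 521 and 534 in Snd1_KI and 394, 414 and 489 in WT, with both mutants above WT. Syvn1 rose 1.43-fold in S6k2_RK (log2 fold change 0.51 ± 0.12 (SE), adjusted p = 0.00826), at the threshold without WT replicate 1 (adjusted p = 0.0507). In Snd1_KI neither was called, at log2 fold change 0.35 ± 0.15 (SE), adjusted p = 0.193 for Sel1l and log2 fold change 0.35 ± 0.12 (SE), adjusted p = 0.0896 for Syvn1, though Syvn1 was without WT replicate 3 (adjusted p = 0.0404). The log2 fold changes in S6k2_RK with equal totals were −0.0039 for Sel1l and −0.0078 for Syvn1.

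The EDEM proteins trim mannose from misfolded glycoproteins, and OS9 reads the trimmed sugar and hands the protein to SEL1L. Edem2 (ENSMUSG00000038312, chr2:155701677-155729475) had normalized counts of 3572, 4243 and 4082 in S6k2_RK, 3657, 3801 and 3317 in Snd1_KI and 2693, 2802 and 3059.5 in WT, and both mutants lay above WT. Edem2 rose 1.39-fold in S6k2_RK (log2 fold change 0.47 ± 0.10 (SE), adjusted p = 0.00509), called in all 9 fits without a library. Its Snd1_KI difference was not called (log2 fold change 0.33 ± 0.10 (SE), adjusted p = 0.0625), but was without S6k2_RK replicate 1 (adjusted p = 0.0287) and without WT replicate 3 (adjusted p = 0.046). Edem1 (ENSMUSG00000030104, chr6:108828641-108859356) had normalized counts of 2265, 2703 and 2850.2 in S6k2_RK, 2120.4, 2206 and 2448 in Snd1_KI and 1989, 1795 and 2018 in WT, again with both mutants above WT. Edem1 rose 1.34-fold in S6k2_RK (log2 fold change 0.43 ± 0.11 (SE), adjusted p = 0.014), lost in 2 fits (adjusted p = 0.0768 without S6k2_RK replicate 3, 0.0626 without WT replicate 2), and was not called in Snd1_KI (log2 fold change 0.22 ± 0.11 (SE), adjusted p = 0.249). Edem3 was not called in either mutant, with log2 fold changes of 0.32 in S6k2_RK and 0.29 in Snd1_KI. With equal totals the S6k2_RK values turned to −0.047 for Edem2 and −0.095 for Edem1.

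Os9 (ENSMUSG00000040462, chr10:127095650-127121131) had normalized counts of 2291, 2816 and 2736 in S6k2_RK, 2628, 2574 and 2691 in Snd1_KI and 1840.1, 1509 and 2093 in WT. The Snd1_KI libraries were tightly grouped inside the S6k2_RK range, and both stood above WT. Os9 rose 1.45-fold in S6k2_RK (log2 fold change 0.53 ± 0.12 (SE), adjusted p = 0.00609), called in all 9 fits without a library, and 1.46-fold in Snd1_KI (log2 fold change 0.55 ± 0.12 (SE), adjusted p = 0.00973). The Snd1_KI call was lost in 2 fits (adjusted p = 0.0515 without Snd1_KI replicate 3, 0.071 without WT replicate 2), the fewest among the Snd1_KI calls. Os9 was positive in both mutants with equal totals too, at 0.014 in S6k2_RK and 0.26 in Snd1_KI, without a call.

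Vcp (ENSMUSG00000028452, chr4:42979963-43000507) encodes p97, the ATPase that pulls ERAD substrates into the cytosol. Its normalized counts were 1942, 2434 and 2254 in S6k2_RK, 2159, 2217 and 2235 in Snd1_KI and 1629, 1603 and 1845 in WT, with both mutants above WT. Vcp rose 1.30-fold in S6k2_RK (log2 fold change 0.38 ± 0.10 (SE), adjusted p = 0.0217) and 1.30-fold in Snd1_KI (log2 fold change 0.38 ± 0.10 (SE), adjusted p = 0.0347). The S6k2_RK call was lost in 4 fits (adjusted p = 0.0885 without S6k2_RK replicate 2, 0.0751 without S6k2_RK replicate 3, 0.0865 without WT replicate 1, 0.0778 without WT replicate 2). The Snd1_KI call was lost in 5 (adjusted p = 0.0925 without Snd1_KI replicate 1, 0.114 without Snd1_KI replicate 2, 0.125 without Snd1_KI replicate 3, 0.125 without WT replicate 1, 0.145 without WT replicate 2). By edgeR Vcp was called in S6k2_RK (adjusted p = 0.0435) but not in Snd1_KI (adjusted p = 0.0648). With equal totals it stood at −0.14 in S6k2_RK (limma adjusted p = 0.223) and 0.098 in Snd1_KI (adjusted p = 0.501), without a call. Herpud1, a scaffold of the ligase complex and a sensitive stress target, ran the other way in S6k2_RK at −0.076 ± 0.16 (SE) and stood at 0.18 ± 0.16 in Snd1_KI. Its counts of 3821, 5015 and 3037 in S6k2_RK, 4836, 4076 and 5040.0 in Snd1_KI and 4242, 4807 and 3339.8 in WT overlapped throughout, and it had the second highest level per kilobase of the 34 genes in WT.

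**Figure D4:**
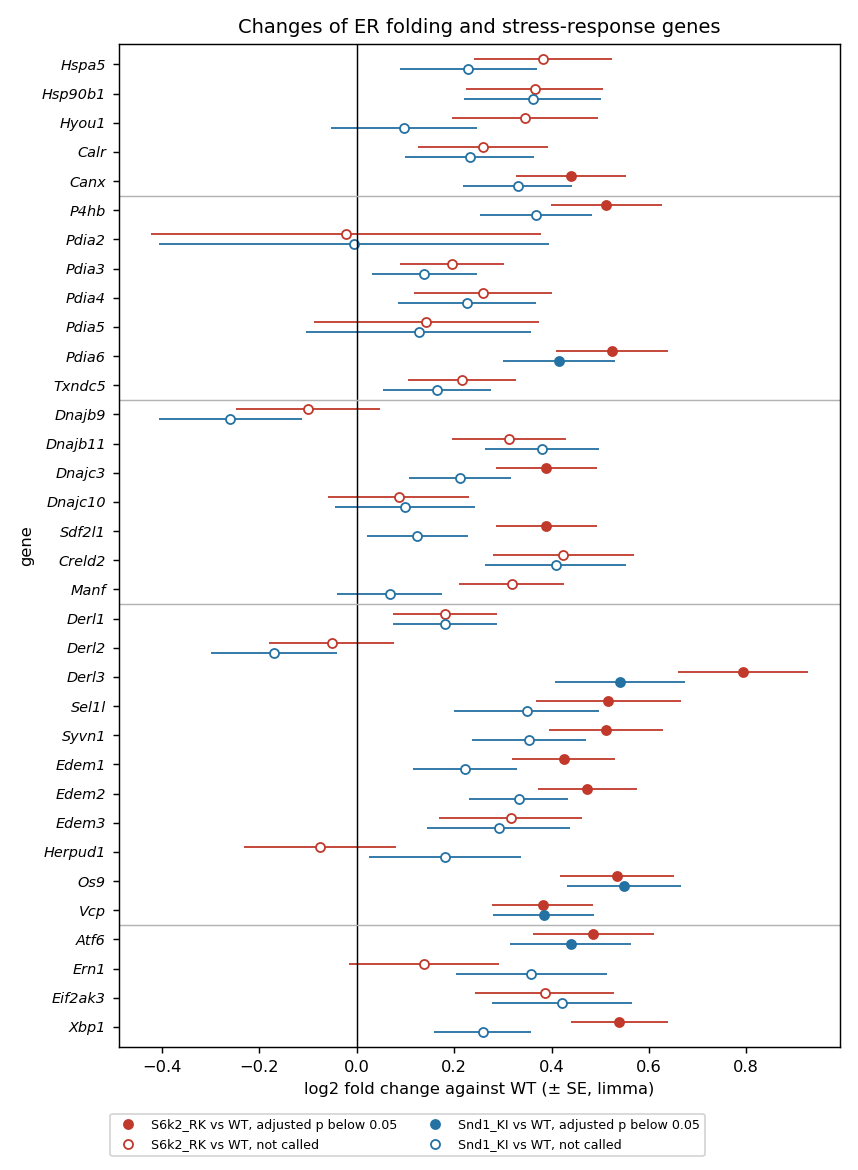
Log2 fold change against WT with its standard error for each of the 34 genes, S6k2_RK in red above Snd1_KI in blue, with filled points for adjusted p below 0.05 and lines between the roles. With the authors' size factors 14 red and 5 blue points are filled, all right of 0, and Derl3 lies farthest right. With equal totals the medians of the 34 genes are −0.15 in S6k2_RK and −0.040 in Snd1_KI.

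The sensors start the response, and Xbp1 encodes the factor that IRE1 activates. Of the 4 genes, 2 were called higher in S6k2_RK and 1 in Snd1_KI, with medians of 0.44 and 0.39, and −0.084 and 0.10 with equal totals. Xbp1 (ENSMUSG00000020484, chr11:5520659-5525893) had normalized counts of 4686, 4321 and 5411 in S6k2_RK, 4006, 4024 and 3796 in Snd1_KI and 3417, 3225 and 3240.5 in WT. The 3 groups did not overlap, with S6k2_RK highest, then Snd1_KI, then WT. Xbp1 rose 1.45-fold in S6k2_RK (log2 fold change 0.54 ± 0.10 (SE), adjusted p = 0.00167), called in all 9 fits without a library, and was not called in Snd1_KI (log2 fold change 0.26 ± 0.10 (SE), adjusted p = 0.143). With equal totals the values were 0.019 in S6k2_RK and −0.026 in Snd1_KI.

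Atf6 (ENSMUSG00000026663, chr1:170704674-170867771) had normalized counts of 648, 902 and 744 in S6k2_RK, 722, 659 and 829 in Snd1_KI and 526, 550.4 and 546 in WT, with the WT libraries close together and both mutants above them. Atf6 rose 1.40-fold in S6k2_RK (log2 fold change 0.49 ± 0.12 (SE), adjusted p = 0.0162) and 1.36-fold in Snd1_KI (log2 fold change 0.44 ± 0.12 (SE), adjusted p = 0.0441). The S6k2_RK call was lost in 2 fits (adjusted p = 0.0776 without S6k2_RK replicate 2, 0.0618 without WT replicate 1). The Snd1_KI call was kept in 2 of 9 fits, those without S6k2_RK replicate 1 and without S6k2_RK replicate 2, and its adjusted p reached 0.215 without WT replicate 2. With equal totals Atf6 stood at −0.034 in S6k2_RK and 0.15 in Snd1_KI.

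Ern1 (ENSMUSG00000020715, chr11:106394650-106487852) had normalized counts of 341, 506 and 456 in S6k2_RK, 511, 403 and 604 in Snd1_KI and 421, 364 and 386 in WT, and the groups overlapped. It was not called in S6k2_RK (log2 fold change 0.14 ± 0.15 (SE), adjusted p = 0.611) or Snd1_KI (log2 fold change 0.36 ± 0.15 (SE), adjusted p = 0.197), and with equal totals it was called lower in S6k2_RK (−0.38, adjusted p = 0.0468). Eif2ak3 (ENSMUSG00000031668, chr6:70844515-70905245) had normalized counts of 826, 1096 and 1279.8 in S6k2_RK, 1006, 1118 and 1108 in Snd1_KI and 743, 722 and 968 in WT. Snd1_KI lay above WT and S6k2_RK overlapped it. Eif2ak3 was not called in S6k2_RK (log2 fold change 0.39 ± 0.14 (SE), adjusted p = 0.0855) or Snd1_KI (log2 fold change 0.42 ± 0.14 (SE), adjusted p = 0.0959). It was called without S6k2_RK replicate 1 in both (adjusted p = 0.00755 in S6k2_RK and 0.0344 in Snd1_KI) and without WT replicate 3 (adjusted p = 0.0307 and 0.0315).

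**Figure D5:**
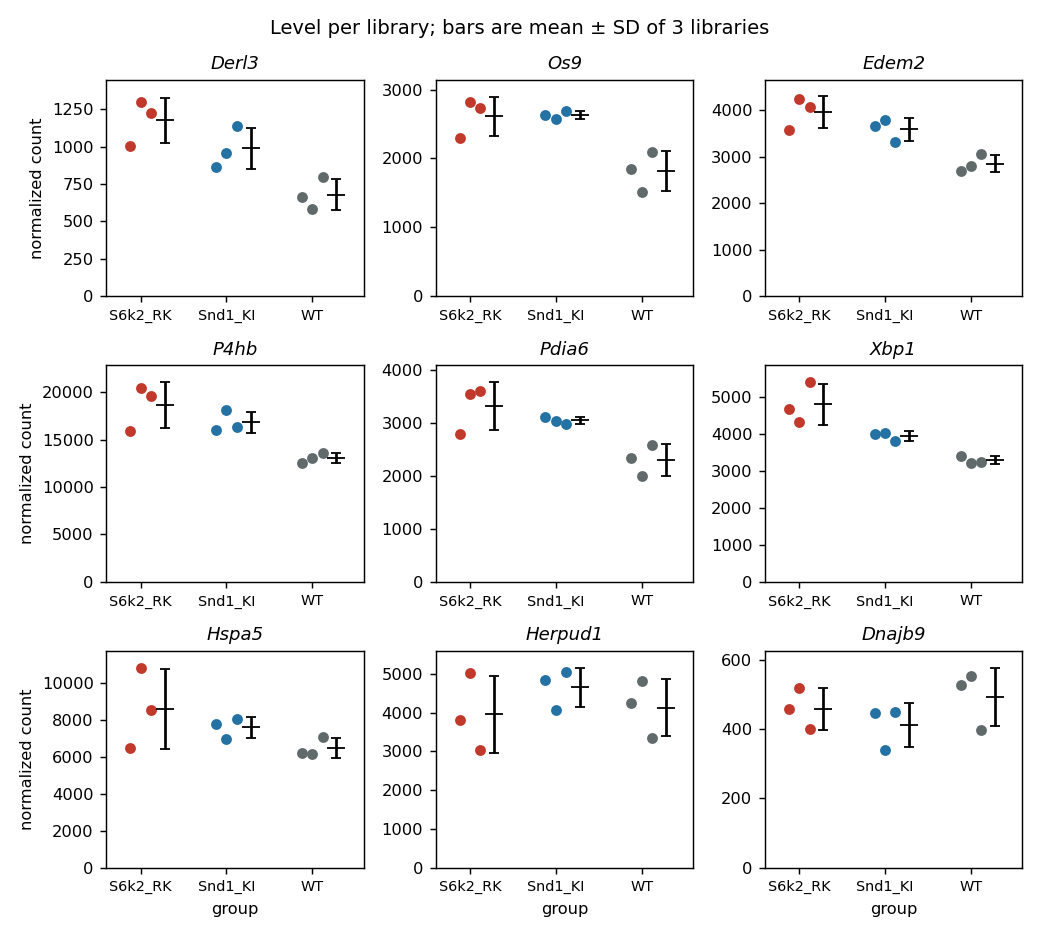
Normalized count (vertical axis, from 0) in each library of S6k2_RK, Snd1_KI and WT for 9 of the genes, with the mean and SD of 3 libraries beside the points. Derl3, Os9, Edem2, P4hb, Pdia6 and Xbp1 lie above WT in both mutants with the authors' size factors (with equal totals P4hb and Edem2 turn negative in S6k2_RK and Xbp1 in Snd1_KI), while Hspa5, Herpud1 and Dnajb9 overlap.

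The 2 mutants were also set against each other directly, since an effect called in one and not in the other is not shown to differ. None of the 34 genes was called between S6k2_RK and Snd1_KI by limma, and none by edgeR or DESeq2. Calls among all genes were also few (0.0586% higher and 0.0586% lower). With equal totals none of the 34 was called either, where 0.0335% of all genes were called higher and 0.259% lower. The log2 differences of S6k2_RK against Snd1_KI ran from −0.26 (Herpud1) to 0.28 (Xbp1), with a median of 0.054 that became −0.18 with equal totals and −0.052 outside the enzymes. Their standard errors ran from 0.10 to 0.40. At an unadjusted p below 0.05 there were 3 of the 34 genes, against 10.1% of all genes tested, so the count was no higher than the background and none of the 3 passed the adjustment. Their values are given as a description, chosen after they were seen. Xbp1 was higher in S6k2_RK by 0.28 ± 0.10 (SE, adjusted p = 0.323), Sdf2l1 by 0.26 ± 0.10 (adjusted p = 0.385) and Manf by 0.25 ± 0.11 (adjusted p = 0.433). Xbp1 and Sdf2l1 were the 2 genes whose S6k2_RK libraries all lay above the Snd1_KI libraries, where 7.81% of all genes did so. Derl3, the largest change against WT, differed by 0.25 ± 0.13 (SE, adjusted p = 0.545).

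Groups that do not overlap give a count free of the model. With the authors' size factors 15 of 34 genes in S6k2_RK lay wholly above WT and 0 wholly below, where 14.7% of all genes lay above and 13.6% below. In Snd1_KI, 15 lay above and 1 below (Derl2), where 14.1% of all genes lay above and 13.0% below. The ERSE genes were set beside the rest of the 30 with a promoter. In S6k2_RK 5 of the 9 genes with an ERSE were called higher and 8 of the 21 without one, with median log2 fold changes of 0.42 and 0.31. In Snd1_KI 2 of 9 and 2 of 21 were called, with medians of 0.35 and 0.23. Over all genes tested 5.20% were called higher in S6k2_RK and 2.40% in Snd1_KI. These calls hold for the authors' size factors, and with equal totals none of the 34 genes was called higher in either mutant. Herpud1, with its ERSE-II, was called in neither mutant with the authors' size factors, and lower in S6k2_RK with equal totals (−0.60, limma adjusted p = 0.011). These counts describe the promoters of this set and carry no test.

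A wider list of 78 genes of the same pathways, of which 72 were tested, gives the setting. In S6k2_RK 20 of the 72 were called higher and 2 lower (Mzb1 and Tmx3), and in Snd1_KI 8 higher and 1 lower (Mzb1), with median log2 fold changes of 0.26 and 0.19 that became −0.26 and −0.099 with equal totals (background as for the 34 genes, 5.20% and 2.40% called higher). Equal totals left 0 called higher and 24 lower in S6k2_RK, where 0.310% of all genes tested were called higher and 49.8% lower. In Snd1_KI they left 1 higher and 5 lower, with a background of 0.376% higher and 13.2% lower. By group and with the authors' size factors, the calls in S6k2_RK were 2 of 10 higher in the PERK and ATF4 arm, 4 of 10 among regulators of ATF6 and XBP1, 2 of 17 in ERAD, 4 of 15 in oxidative folding, 2 of 5 in the calnexin cycle and 6 of 15 among co-chaperones and prolyl isomerases. In Snd1_KI they were 2, 2, 0, 1, 1 and 2 in the same order. The 4 genes with the smallest p in S6k2_RK were Prdx4, Rtcb, Creb3l1 and Sil1. Prdx4, an ER peroxidase that feeds oxidizing power to PDI, had normalized counts of 2394, 2565 and 2591 in S6k2_RK, 1809.6, 1989 and 1900.3 in Snd1_KI and 1739, 1742 and 1535 in WT (log2 fold change 0.59 ± 0.095 (SE), adjusted p = 0.000575 in S6k2_RK). Rtcb, the ligase that joins the spliced Xbp1 message, had 1109.6, 1199.8 and 1229 in S6k2_RK, 974, 1022 and 996 in Snd1_KI and 815, 762 and 865 in WT (log2 fold change 0.53 ± 0.097 (SE), adjusted p = 0.0015 in S6k2_RK). All S6k2_RK libraries lay above all others for both genes. With equal totals neither was called, at log2 fold changes of 0.071 for Prdx4 (adjusted p = 0.532) and 0.015 for Rtcb (adjusted p = 0.901).

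Creb3l1 (OASIS), a membrane-bound relative of ATF6, had normalized counts of 438, 676 and 571 in S6k2_RK, 503, 596 and 530.4 in Snd1_KI and 341, 266 and 362 in WT. It rose 1.73-fold in S6k2_RK (log2 fold change 0.79 ± 0.15 (SE), adjusted p = 0.0023) and 1.69-fold in Snd1_KI (log2 fold change 0.76 ± 0.15 (SE), adjusted p = 0.00572), called in all 9 fits without a library in both. With equal totals it stood at 0.27 in S6k2_RK (adjusted p = 0.122) and 0.47 in Snd1_KI (adjusted p = 0.0377). Sil1, a nucleotide exchange factor of BiP, had 527, 584 and 626 in S6k2_RK, 549.8, 595 and 524 in Snd1_KI and 401, 377 and 406 in WT, with adjusted p = 0.00308 in S6k2_RK and 0.0121 in Snd1_KI. The Sil1 call in Snd1_KI was lost in 2 fits (adjusted p = 0.0748 without Snd1_KI replicate 2, 0.0645 without WT replicate 2). The smallest p in Snd1_KI also named Dnajb12, a J-domain protein of the ER membrane, with 315, 349 and 284 in S6k2_RK, 332, 359 and 311 in Snd1_KI and 222, 215 and 253 in WT (log2 fold change 0.54 ± 0.13 (SE), adjusted p = 0.0165 in Snd1_KI), and Tmbim6 (BI-1), a membrane protein that restrains IRE1, with 2332, 2446 and 2574 in S6k2_RK, 2467, 2454 and 2483 in Snd1_KI and 1815, 1706 and 2060.3 in WT (log2 fold change 0.41 ± 0.097 (SE), adjusted p = 0.0171 in Snd1_KI). Single libraries ended both Snd1_KI calls, for Dnajb12 at adjusted p = 0.056 without Snd1_KI replicate 1, 0.0878 without Snd1_KI replicate 2, 0.0623 without WT replicate 1, 0.0824 without WT replicate 2, and for Tmbim6 at adjusted p = 0.0639 without Snd1_KI replicate 1, 0.0679 without Snd1_KI replicate 2, 0.0758 without Snd1_KI replicate 3, 0.0682 without WT replicate 1, 0.102 without WT replicate 2. With equal totals Sil1 stood at 0.029 in S6k2_RK (adjusted p = 0.824) and 0.21 in Snd1_KI (adjusted p = 0.200). Dnajb12 then stood at 0.25 (adjusted p = 0.230) and Tmbim6 at 0.13 (adjusted p = 0.378) in Snd1_KI, so no call was left for these 3 genes.

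Cell types other than acinar cells also carry this machinery, above all plasma cells. Of 6 plasma cell markers, 5 were tested. Called lower were 3 in S6k2_RK (Irf4, Jchain and Mzb1) and 2 in Snd1_KI (Irf4 and Mzb1). Marker sums were 182 to 282 in S6k2_RK, 231 to 297 in Snd1_KI and 229 to 538 in WT. The listed marker Mzb1, an ER co-chaperone of antibody-secreting cells, had normalized counts of 2.00, 6.71 and 0 in S6k2_RK, 0, 5.42 and 12.8 in Snd1_KI and 19.2, 59.5 and 44.3 in WT, and Jchain had 17.99, 119 and 8.66 in S6k2_RK, 92.6, 73.6 and 89.8 in Snd1_KI and 79.4, 331 and 299.95 in WT. Every library of both mutants lay below every WT library in Mzb1, while Jchain overlapped WT in both, and Tnfrsf17 was listed at 0 in all S6k2_RK libraries. Of the 8 acinar markers, 3 were called higher (Cel, Nr5a2 and Ptf1a) and 1 lower (Rbpjl) in S6k2_RK. In Snd1_KI 1 was called higher (Nr5a2) and 1 lower (Rbpjl). With equal totals 0 were called higher and 2 lower in S6k2_RK, where 49.8% of all genes were called lower. In Snd1_KI 1 was then higher and 1 lower, where 13.2% of all genes were lower. Their median log2 fold changes with equal totals were 0.15 in S6k2_RK and 0.13 in Snd1_KI. Of 38 digestive enzyme genes tested, 16 were called higher and 1 lower in S6k2_RK and 4 higher and 0 lower in Snd1_KI. The acinar marker Cel is also in this list, so the 2 lists are not separate measures. Equal totals gave 7 higher and 3 lower in S6k2_RK and 3 higher and 1 lower in Snd1_KI, where 0.310% and 0.376% of all genes were called higher. Lower calls were made for 6 of 6 B cell markers tested in each mutant, 5 of 6 macrophage markers in S6k2_RK and 1 in Snd1_KI, 4 of 5 adipocyte markers in S6k2_RK and 0 in Snd1_KI, and 2 of 5 endothelial markers in each. Duct markers gave 1 of 6 higher in S6k2_RK and 2 in Snd1_KI, and with these size factors none of 7 islet or 6 fibroblast and stellate markers was called in either. In RNA from whole tissue, more acinar cells and more message per acinar cell cannot be told apart, and the part of the acinar share in the values above was not tested.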

How the data were processed

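PolyA RNA from snap-frozen, ground pancreas was sequenced as strand-specific paired-end 150 bp libraries, about 40 M read pairs each, per the labels' protocols. The authors deposited a table of 46078 genes in 9 libraries whose values are normalized counts, a signal of gene counts divided by 1 size factor per library. The submitters' processing notes name DESeq2 and the builds GRCm38 and mm10. The aligner, counter and annotation are not given in the sources used here. Values were whole multiples of 1 step per library (100% within 1e-06), which gave back whole reads. In S6k2_RK replicate 1 the step was 1.00 and cannot be told from rounding, so count tests were run with and without it.

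The 11953 genes whose mean reached 10 normalized counts were tested with limma 3.58.1 (R 4.3.3) on log2(normalized count + 1), which understates changes of low genes, with a mean-variance trend, 9 libraries in 1 fit, two-sided, with Benjamini-Hochberg adjustment. The script was tested on simulated data. Alternatives were omission of each library, count tests on the recovered reads (DESeq2 1.42.0, edgeR 4.0.16), a replicate block, and other scalings, pseudocounts and filters. No library copied another of its group (chi-square of 8.16 to 22.2 per degree of freedom). With 3 animals per group the p-values measure the spread between these animals.

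Values in every library were given for genes called in either mutant, for the sensors, Xbp1 and Hspa5, and of the wider list for the 4 called genes with the smallest p. Those for Pdia2, Dnajb9, Herpud1, Mzb1 and Jchain were added after their values were seen. The 34 genes and the lists were chosen with earlier results of these data known. Gene coordinates were read from GENCODE release M21 (GRCm38) and promoters from RefSeq (GRCm38.p6).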

Additional observations from a re-analysis of the deposited data

How the results depend on the processing

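For S6k2_RK against WT the 14 genes called higher became 0 with equal totals and 6 with equal totals outside the digestive enzymes, and 22 by edgeR and 22 by DESeq2 with S6k2_RK replicate 1 left out, alternatives chosen after seeing the data. The median of 0.37 became −0.15 with equal totals, where 8 genes were called lower, and 0.22 outside the enzymes. For Snd1_KI against WT the 5 became 3 with a minimum mean of 50, 0 with equal totals (2 lower), 2 outside the enzymes, 10 with only the groups compared, 3 by edgeR, 8 by DESeq2, and 8 and 11 by edgeR and DESeq2 with S6k2_RK replicate 1 left out. The median of 0.25 became −0.040 with equal totals. For S6k2_RK against Snd1_KI the median of 0.054 became −0.18 with equal totals and −0.052 outside the enzymes. Leaving out 1 library gave 7 to 22 genes called higher in S6k2_RK against WT (median 0.26 to 0.49), 0 to 10 in Snd1_KI against WT (median 0.23 to 0.35), 0 between the mutants (median 0.013 to 0.16), and 0 called lower throughout. Calls among all 11953 genes moved as well, from 247 to 856 higher in S6k2_RK against WT and from 79 to 383 in Snd1_KI against WT.

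Of the 34 genes, 30 had positive values in S6k2_RK against WT, and 26 of these turned negative with equal totals, among them Atf6 (−0.034), Canx (−0.080), Dnajc3 (−0.13), Edem1 (−0.095), Edem2 (−0.047), Eif2ak3 (−0.13), Ern1 (−0.38), Hspa5 (−0.14), P4hb (−0.0079), Sdf2l1 (−0.13), Sel1l (−0.0039), Syvn1 (−0.0078) and Vcp (−0.14). Outside the enzymes 3 turned negative, Dnajc10 (−0.065), Ern1 (−0.013) and Pdia5 (−0.0064). In Snd1_KI against WT 15 of 31 positive values turned negative with equal totals, among them Dnajc3 (−0.074), Edem1 (−0.063), Hspa5 (−0.056), Sdf2l1 (−0.16) and Xbp1 (−0.026), and 0 did outside the enzymes. The median gene shifted by construction with the scaling, to −0.51 in S6k2_RK and −0.28 in Snd1_KI with equal totals. Each rescaling moved all genes of a comparison by nearly the same amount, so the sign changes listed here follow from that shift. What lay behind the changes with other methods, filters and left-out libraries was not tested.

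Same-numbered libraries of different groups did not deviate together (correlations of −0.078 to 0.045, against −0.074 to 0.127 for different numbers). This gives no sign that the numbers pair animals, but animals could be paired without a shared deviation, so pairing is not excluded. With the replicate block 16 genes were called higher in S6k2_RK against WT and 3 in Snd1_KI against WT. The TMM scaling, both pseudocounts and the absent filter left both counts within 1.5 times of 14 and 5.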
